A study of Homo sapiens with 12 samples.

Results

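The 8 genes described here carry iron through a human cell: the transferrin receptor TFRC and the transporter SLC11A2 for uptake, the ferritin chains FTH1 and FTL for storage, the exporter SLC40A1, the sensors IREB2 and ACO1, and the iron-sulfur scaffold ISCU. They were chosen by name, and for each one the transcripts with Cufflinks class code = (the splice sites of the nearest reference transcript) or j (at least 1 splice site shared with it) were summed. This gave 129 transcripts and 8 of the 56537 gene names in the table, of which 16680 passed a filter of a summed value above 0.5 in at least 3 libraries. The filter kept 7 of the 8 genes, and SLC40A1 stayed below it. Poly(A) RNA of HCT116, an established colorectal cancer cell line grown in RPMI with serum, was sequenced in 12 strand-specific libraries. Cells at 21% oxygen (0 h) were compared with cells moved to 1% oxygen for 1, 2 or 24 h, with 3 biological replicates at each of the 4 time points. The labels name no other agent or genetic change in any of the 4 groups, and hypoxia began 24 h after plating. When the 0 h cells were harvested relative to the 24 h cells is not given in the sources used here, so at 24 h the effects of hypoxia and of longer culture cannot be told apart.

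Cells take up iron mostly as transferrin bound to its receptor TFRC, reduce it in the endosome and release it into the cytosol through SLC11A2 (DMT1). Iron that is not used is stored within the shell built from the ferritin heavy chain FTH1, which oxidises it, and the light chain FTL, or leaves through ferroportin, the product of SLC40A1. When iron is scarce, the RNA-binding proteins IRP1 (gene ACO1, which with an iron-sulfur cluster is instead the cytosolic aconitase) and IRP2 (gene IREB2, degraded when iron and oxygen are plentiful) bind hairpins called iron-responsive elements. Binding in the 3′ untranslated region (UTR) of TFRC protects that RNA from decay, whereas binding in the 5′ UTR of ferritin and ferroportin RNA blocks translation, which RNA levels do not show. ISCU is the scaffold on which new iron-sulfur clusters are built, and it is a known target of the hypoxia-induced microRNA miR-210.

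The hairpins are shown because they set apart the RNAs that the IRP proteins bind at the 3′ end from those bound at the 5′ end. They were found by searching transcript UTRs on the transcribed strand for a C, 5 bases, the letters CAGTG followed by A, C or T, and 5 bases that pair with the first 5 (G-T pairs allowed), with 6 flanking bases on each side in the same exon. Each is 29 bases of the hg19 (GRCh37) genome, written as DNA on the gene's own strand, and capitals mark the 6 bases of the loop.
TFRC 3′ UTR, chr3:195777850-195777878, minus strand: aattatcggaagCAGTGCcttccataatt
TFRC 3′ UTR, chr3:195777446-195777474, minus strand: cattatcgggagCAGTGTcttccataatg
TFRC 3′ UTR, chr3:195777381-195777409, minus strand: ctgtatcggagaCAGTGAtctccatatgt
TFRC 3′ UTR, chr3:195777334-195777362, minus strand: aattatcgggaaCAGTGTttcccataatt
FTH1 5′ UTR, chr11:61735046-61735074, minus strand: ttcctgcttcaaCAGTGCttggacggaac
FTL 5′ UTR, chr19:49468592-49468620, plus strand: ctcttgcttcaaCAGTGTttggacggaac
SLC40A1 5′ UTR, chr2:190445387-190445415, minus strand: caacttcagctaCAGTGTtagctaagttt
SLC11A2 3′ UTR, chr12:51382052-51382080, minus strand: agccatcagagcCAGTGTgtttctatggt
All of these pair at 5 of 5 stem positions except the SLC11A2 hairpin, which pairs at 4. A match with 5 pairs was present in a UTR of 176 of 20538 protein-coding genes in GENCODE release 44 (0.857%), and one with exactly 4 pairs in 914 (4.45%). IREB2 and ACO1 also had 4-pair matches in their 3′ UTRs, and no match was found in ISCU. The search finds only this pattern, so an element that departs from it is missed and the list need not be complete, also for TFRC. A match is a description of the sequence and was not tested for binding.

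For ISCU the sequences shown are the miR-210 seed, its match, and the beginnings of the coding sequence in the isoforms whose levels are given further on. The mature microRNA comes from RefSeq (GRCh38.p14), with its seed, bases 2 to 8, in capitals. The letters searched were ACGCACA on the transcribed strand, which 902 of 20538 protein-coding genes (4.39%) hold in a 3′ UTR. The other sequences are from hg19, plus strand, and capitals mark the seed match and the start codons.
hsa-miR-210-3p: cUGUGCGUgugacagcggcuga
ISCU 3′ UTR, chr12:108962789-108962816: aagagctatgagatACGCACAatacttg
ISCU presequence isoform, ENST00000311893, chr12:108956399-108956428: ATGgcggcggctggggctttccgtctgagg
ISCU exon 1B isoform, ENST00000392807, chr12:108957893-108957922: ATGgttctcattgacatgagtgtagacctt
The presequence isoform starts in exon 1, whose 114 coding bases include the mitochondrial targeting presequence, and its coding sequence of 501 bases gives 167 residues. The exon 1B isoform includes an extra exon of 96 bases (chr12:108957836-108957931) in which its coding sequence starts, giving 426 coding bases and 142 residues without that presequence. Both share 4 coding exons, and the shorter protein is known as the cytosolic form.

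Values are FPKM, the fragments assigned to a transcript scaled to its length and to the fragments mapped in the library, so levels of different genes are compared per length. At 0 h ferritin RNA stood far above the rest, with mean FPKM of 1233 ± 103 (SD, n = 3) for FTH1 and 869.9 ± 85.2 for FTL, ahead of TFRC (120.3 ± 12.5) and ISCU (90.5 ± 5.88). IREB2 (18.3 ± 1.38) and ACO1 (16.9 ± 2.63) overlapped between libraries, and SLC11A2 (9.98 ± 0.833) and SLC40A1 (0.0835 ± 0.0653) were lowest. The other neighbours in this order did not overlap at 0 h. By 24 h the order of the upper genes was kept, but TFRC (61.4 ± 34.2) and ISCU (54.5 ± 4.72) overlapped, and ACO1 (20.3 ± 1.41) stood above IREB2 (16.2 ± 3.97) with overlapping libraries.

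The libraries labelled 24 h carried the known hypoxia response, with NDRG1 at 24.1 ± 6.18 FPKM at 0 h and 984 ± 153 at 24 h, and CA9 at 0.0790 ± 0.0578 and 4.62 ± 1.13 (SD, n = 3). Of 9 colorectal epithelial markers, 6 had a mean above 0.5 FPKM, and KRT20, LGALS4 and VIL1 did not. Their summed FPKM was 2006 to 2830 at 0 h and 2497 to 2736 at 24 h, within which CDH1 (log2 fold change 1.76) and KRT19 (0.99) rose and KRT20 (-0.79) fell, and their part in the results was not tested either. Of 15 markers of blood, fibroblast, endothelial, erythroid and liver cells, 3 had a mean above 0.5 (CD68, COL1A1 and HBA1) and PECAM1 and HBB were at 0 in every library. Their summed FPKM was 5.04 to 6.81 at 0 h and 17.5 to 22.1 at 24 h, with CD68 and COL1A1 higher at 24 h, and its part in the results was not tested. In bulk RNA, fewer cells of a type and less RNA per cell cannot be told apart. Read counts were not analysed here and the depth behind each value is unknown from these files, so the spread of the 3 libraries is the only error.

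At 24 h of 1% oxygen TFRC and ISCU fell, FTH1 and FTL rose, and SLC11A2, IREB2 and ACO1 did not pass the test, a limma fit to the 12 libraries on the log2(FPKM + 0.5) scale in which the Benjamini-Hochberg adjusted p had to be under 0.01. These 4 of 7 genes are to be read against 41.5% of all gene names past the same test (18.3% higher and 23.2% lower). With an absolute log2 fold change above 1 required as well, TFRC remained, 1 of 7 against a background of 18.3% (8.76% higher and 9.51% lower). Against the 2 h libraries, 3 of 7 genes passed the adjusted p at 24 h, FTH1, TFRC and ISCU (background 36.6%). The libraries of the same 4 genes did not overlap between 0 h and 24 h, as in 60.4% of all gene names. The median log2 fold change was 0.13 over the 7 genes and -0.05 over all gene names.

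At 1 h and 2 h none of the 7 genes passed the limma test, where the whole table gave 1 and 4 gene names at the adjusted p (0.006% and 0.024%). Without adjustment 0 of the 7 had a p under 0.05 at 1 h (background 4.61%), and at 2 h SLC11A2 did (1 of 7, background 15.3%). Libraries did not overlap with those at 0 h for 2 of 7 genes at 1 h, IREB2 and SLC11A2 (background 13.7%), and for SLC11A2 alone at 2 h (1 of 7, background 25.3%).

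**Figure D1:**
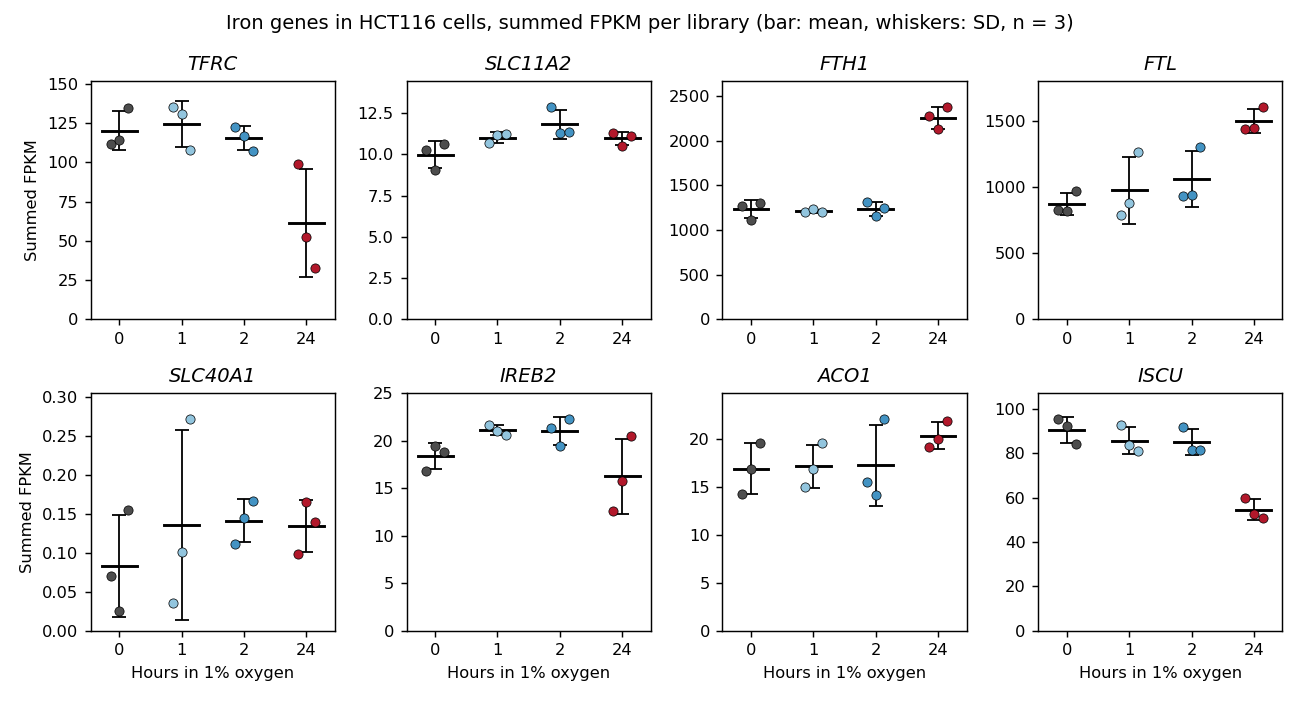
Summed FPKM (y axis, from 0, a different scale in each panel) of the 8 genes at 0, 1, 2 and 24 h in 1% oxygen (x axis). Points are libraries, bars the mean and whiskers the SD of 3 libraries, and TFRC and ISCU sit below, FTH1 and FTL above, every earlier library at 24 h.

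TFRC, which brings transferrin-bound iron into the cell, had FPKM of 112, 114 and 135 in the 0 h libraries. It had 135, 131 and 108 at 1 h, 123, 117 and 107 at 2 h, and 99.1, 52.6 and 32.4 at 24 h. The first 9 libraries overlapped across time points, while all 3 at 24 h were below every other library and were spread over a wider range than those of any other time point. The mean at 24 h was 0.511 times that at 0 h, with a log2 fold change of -1.11 (SE 0.29, limma adjusted p = 0.0057). Leaving out any 0 h library, or 24 h replicate 2 or 3, gave adjusted p of 0.013 to 0.022, above the threshold, and log2 fold changes of -1.16 to -0.73. Without replicate 3 the change was -0.73. In the same 3 libraries at 24 h, transcripts shorter than 300 bases carried 64.9%, 77.3% and 87.6% of all FPKM, and the part of this in the spread of TFRC was not tested. In the 9 earlier libraries this share was 57.0% to 85.9% while TFRC was 107 to 135 FPKM.

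Most TFRC RNA was the full-length isoform of 5111 bases matching ENST00000360110, with 107 ± 11.7 FPKM at 0 h and 51.4 ± 30.8 at 24 h (SD, n = 3). It was the TFRC isoform of 7 tested that changed, with a log2 fold change of -1.22 (SE 0.32, limma adjusted p = 0.016 over 64395 transcripts). Its share of TFRC was 89.2% ± 0.986 at 0 h and 82.3% ± 3.74 at 24 h. The shares did not overlap (two-sided exact permutation test, p = 0.1, the smallest that 3 libraries against 3 can give). Over the 12 libraries, the gene names whose log2 values ran most like TFRC were BIRC5 (Pearson's r = 0.97), UQCRFS1 (0.97) and EBP (0.96), which is a description of libraries that share their time points.

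SLC11A2, the transporter that moves iron out of the endosome, passed no contrast with 0 h. Its FPKM was 10.2, 9.05 and 10.7 at 0 h, 10.7, 11.2 and 11.2 at 1 h, 12.9, 11.3 and 11.4 at 2 h, and 11.3, 10.5 and 11.1 at 24 h. Libraries at 1 h and 2 h lay above those at 0 h by a narrow margin and those at 24 h overlapped with them. The log2 fold changes were 0.14 (SE 0.10), 0.24 (SE 0.10) and 0.13 (SE 0.10), with limma adjusted p of 0.996, 0.30 and 0.29. Over the alternatives run the value at 24 h lay between -0.029 and 0.36, none of them past the threshold. Its RNA exists with and without the 3′ hairpin shown above. Transcripts matching a reference with the hairpin had 3.10 ± 0.688 FPKM at 0 h and 3.27 ± 1.35 at 24 h, and those matching a reference without it 2.38 ± 0.445 and 3.99 ± 1.87 (SD, n = 3). Transcripts that could not be assigned held 4.51 ± 0.794 and 3.72 ± 0.634. The references without the hairpin include short, retained-intron and nonsense-mediated decay models, such as ENST00000551215 of 609 bases. A lack of the hairpin in this group therefore need not mean a different 3′ end. The share with the hairpin among assigned transcripts was 59.7%, 59.2% and 50.6% at 0 h and 25.0%, 49.4% and 63.4% at 24 h, which overlapped (two-sided exact permutation test, p = 0.6). At 1 h it was 65.9%, 63.8% and 59.9%, above the 0 h libraries by a narrow margin, and the level without the hairpin at 24 h (6.14, 3.10 and 2.72 FPKM) lay above that at 0 h (2.63, 1.86 and 2.64). Each of these gave an exact permutation p = 0.1, the smallest possible. None of 6 SLC11A2 transcripts tested changed at 24 h, next to 27.1% of all transcripts tested.

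FTH1, the ferritin chain that oxidises iron for storage, was the most abundant of the 8 genes in mean FPKM at every time point. Its FPKM was 1274, 1116 and 1308 at 0 h, 1203, 1230.5 and 1202 at 1 h, 1316, 1161 and 1243 at 2 h, and 2279, 2131 and 2375 at 24 h. The 9 earlier libraries formed a narrow band, and all 3 at 24 h stood well above it. The ratio of means was 1.83, with a log2 fold change of 0.88 (SE 0.10, limma adjusted p = 1.4e-05). At 1 h and 2 h the log2 fold changes were -0.02 and 0.01 (SE 0.10 each).

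The rise of FTH1 was spread over its main isoforms. The isoform matching ENST00000273550 had 539.9 ± 64.4 FPKM at 0 h and 1026 ± 69.4 at 24 h, with a log2 fold change of 0.93 (limma adjusted p = 1.1e-04). ENST00000526640 (log2 fold change 0.80, limma adjusted p = 9.3e-05) and ENST00000530019 (1.08, limma adjusted p = 0.0021), both protein-coding, rose with it. ENST00000532829, typed as a target of nonsense-mediated decay, had 156 ± 20.6 and 211 ± 26.3 FPKM and did not pass (log2 fold change 0.43, limma adjusted p = 0.10). The fourth to rise was a minor retained-intron transcript, ENST00000533138, at 2.28 ± 0.235 and 6.63 ± 1.14 FPKM, named after its values were seen. The largest isoform held 43.7% ± 2.35 of FTH1 at 0 h and 45.4% ± 1.05 at 24 h (two-sided exact permutation test, p = 0.3).

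FTL, the ferritin light chain that helps form the iron core, was measured as 1 transcript. Its FPKM was 823, 818 and 968 at 0 h, 784, 880.4 and 1262 at 1 h, 935, 936 and 1305 at 2 h, and 1441, 1448 and 1600.5 at 24 h. Replicate 3 was the highest library at every time point, and the 24 h libraries lay above all others. The log2 fold change at 24 h was 0.78 (SE 0.18, limma adjusted p = 0.0024), a ratio of means of 1.72. Against 2 h it was 0.52 (SE 0.18, limma adjusted p = 0.028), which is above the threshold. At 1 h and 2 h it was 0.14 and 0.27 (SE 0.18 each, limma adjusted p = 0.996 and 0.49). Each 2 h library, but not each 1 h library, lay above the 0 h library of the same number, a pairing that this fit did not use. Leaving out 0 h replicate 1 or 2 moved the adjusted p at 24 h to 0.011 and 0.012, above the threshold, with log2 fold changes of 0.75 and 0.74. In the transcript models FTL shares a locus with BAX, whose FPKM was 68.0 ± 2.05 at 0 h and 73.4 ± 9.40 at 24 h.

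Both ferritin chains have processed pseudogenes of nearly the same sequence, between which reads may have been divided, so their levels are uncertain to that extent. The 25 gene names of the FTH1P pattern summed to 1087 ± 65.1 FPKM at 0 h and 1792 ± 143 at 24 h, and the 16 of the FTLP pattern to 240.5 ± 11.9 and 411 ± 20.1 (SD, n = 3). Neither pair of groups overlapped (two-sided exact permutation test, p = 0.1, the smallest possible). The FTH1P sum was lower than at 0 h at 1 h (993 ± 26.7 FPKM) and 2 h (943 ± 45.7), also without overlap and with an exact p = 0.1, whereas the FTLP sum overlapped with 0 h at both (251 ± 70.3 and 259 ± 47.2). The ratio of FTH1 to FTL within a library, which does not depend on scaling between libraries, was 1.42 ± 0.110 at 0 h and 1.51 ± 0.0605 at 24 h, with overlapping libraries (p = 0.3, exact). The ratio of FTH1 to TFRC was 11.4, 9.76 and 9.72 at 0 h and 23.0, 40.5 and 73.2 at 24 h. At 1 h and 2 h its means were 9.82 ± 1.15 and 10.8 ± 0.814, so that only the 24 h libraries of these 12 lay outside the band from 8.91 to 11.6.

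**Figure D2:**
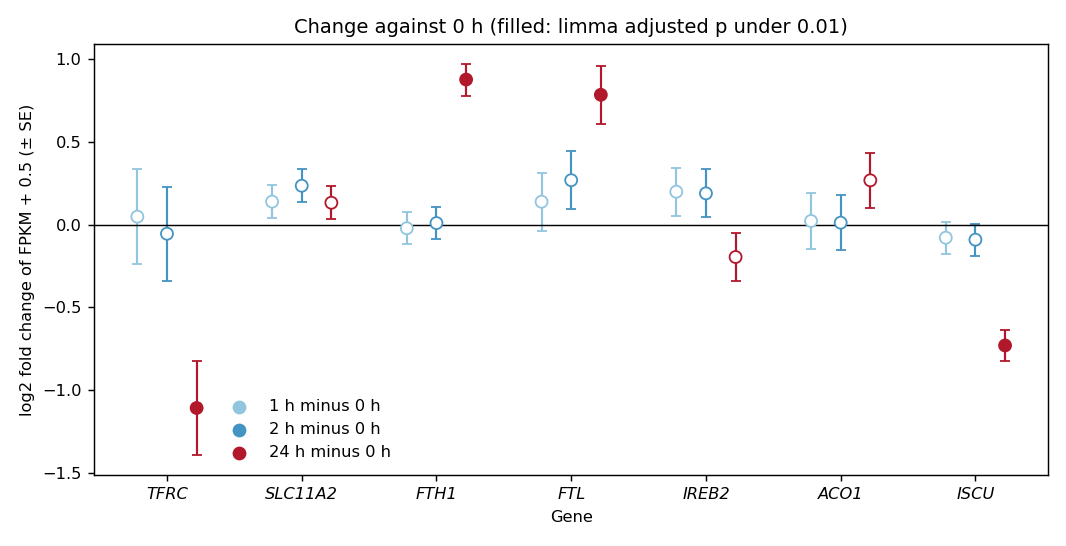
Log2 fold change of FPKM + 0.5 (y axis) against 0 h for the 7 genes tested (x axis) at 1, 2 and 24 h, with bars for the standard error of the limma fit. Filled points passed an adjusted p of 0.01, and these are TFRC and ISCU below 0 and FTH1 and FTL above it, all at 24 h.

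SLC40A1, the only known iron exporter of mammalian cells, was barely detected, with FPKM from 0.0256 to 0.271 over the 12 libraries and a mean of 0.134 ± 0.0336 at 24 h. None of its 11 transcripts passed the filter, and no fold change is given.

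IREB2 encodes IRP2. Its FPKM was 16.8, 19.5 and 18.8 at 0 h, 21.7, 21.0 and 20.6 at 1 h, 21.3, 19.4 and 22.3 at 2 h, and 12.6, 15.7 and 20.4 at 24 h. The 1 h libraries lay above those at 0 h, while those at 24 h spread to both sides of them. No contrast with 0 h passed, with log2 fold changes of 0.20, 0.19 and -0.20 (SE 0.15 each) and limma adjusted p of 0.996, 0.56 and 0.28. The value at 24 h was -0.029 without 24 h replicate 1 and -0.37 without 24 h replicate 3 (limma adjusted p = 0.86 and 0.021). Between 2 h and 24 h it was -0.38 (limma adjusted p = 0.043), also above the threshold.

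ACO1 encodes IRP1. It had FPKM of 14.3, 16.9 and 19.5 at 0 h, 15.0, 16.9 and 19.5 at 1 h, 15.5, 14.1 and 22.1 at 2 h, and 19.1, 19.96 and 21.9 at 24 h. Replicate 3 was again highest at each time point, and the 24 h libraries overlapped with the upper end at 0 h. The log2 fold change at 24 h was 0.27 (SE 0.17, limma adjusted p = 0.19), and 0.16 without 0 h replicate 1 (limma adjusted p = 0.51). A minor isoform matching ENST00000309951 rose from 0.431 ± 0.0903 to 1.12 ± 0.164 FPKM (log2 fold change 0.80, limma adjusted p = 0.029), while the main one, ENST00000379923, stood at 12.2 ± 2.15 and 15.3 ± 0.893 and did not pass (limma adjusted p = 0.30). The minor isoform was singled out after its values were seen. The ratio of IREB2 to ACO1 within a library was 1.18, 1.15 and 0.961 at 0 h and 0.656, 0.788 and 0.933 at 24 h. These did not overlap (two-sided exact permutation test, p = 0.1, the smallest possible).

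ISCU, the scaffold protein of iron-sulfur cluster assembly, fell at 24 h with a narrow spread between libraries. Its FPKM was 95.4, 92.2 and 84.0 at 0 h, 92.6, 83.5 and 81.1 at 1 h, 91.9, 81.5 and 81.6 at 2 h, and 59.8, 52.6 and 51.0 at 24 h. Every 24 h library lay below all earlier ones, and the first 3 time points overlapped. The ratio of means was 0.602, with a log2 fold change of -0.73 (SE 0.10, limma adjusted p = 5.3e-05). It was -0.08 at 1 h and -0.09 at 2 h (SE 0.10 each, limma adjusted p = 0.996 and 0.69). MIR210HG, the host gene of miR-210, stood at 0.557 ± 0.305 FPKM at 0 h and 12.2 ± 0.551 at 24 h (log2 fold change 3.63, limma adjusted p = 2.4e-06). The mature microRNA was not measured, and its part in the fall of ISCU was not tested.

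The ISCU isoforms went in opposite directions. The presequence isoform, whose product goes to mitochondria, had 89.0, 85.7 and 77.3 FPKM at 0 h and 44.3, 40.8 and 42.2 at 24 h, with a log2 fold change of -0.98 (SE 0.10, limma adjusted p = 6.8e-05). The exon 1B isoform had 2.41, 3.33 and 3.95 FPKM at 0 h and 12.9, 8.40 and 5.54 at 24 h, with a log2 fold change of 1.29 (SE 0.39, limma adjusted p = 0.031). Its libraries at 24 h all lay above those at 0 h, and without 0 h replicate 1 or 2 or 24 h replicate 1 or 2 the adjusted p was 0.067 to 0.105, above the transcript threshold of 0.05.

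As a share of ISCU, the presequence isoform held 92.7% ± 0.664 at 0 h and 78.1% ± 4.37 at 24 h, which fell by 14.6 percentage points. The exon 1B isoform held 2.53%, 3.61% and 4.70% at 0 h, means of 4.03% ± 1.77 and 3.63% ± 1.14 at 1 h and 2 h, and 21.6%, 16.0% and 10.9% at 24 h. Neither set of shares overlapped between 0 h and 24 h (two-sided exact permutation test, p = 0.1 for each, the smallest possible). The exon 1B share was compared after its values had been seen. Its isoform matches the second ISCU start shown above, and both isoforms belong to the same Cufflinks start-site group.

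**Figure D3:**
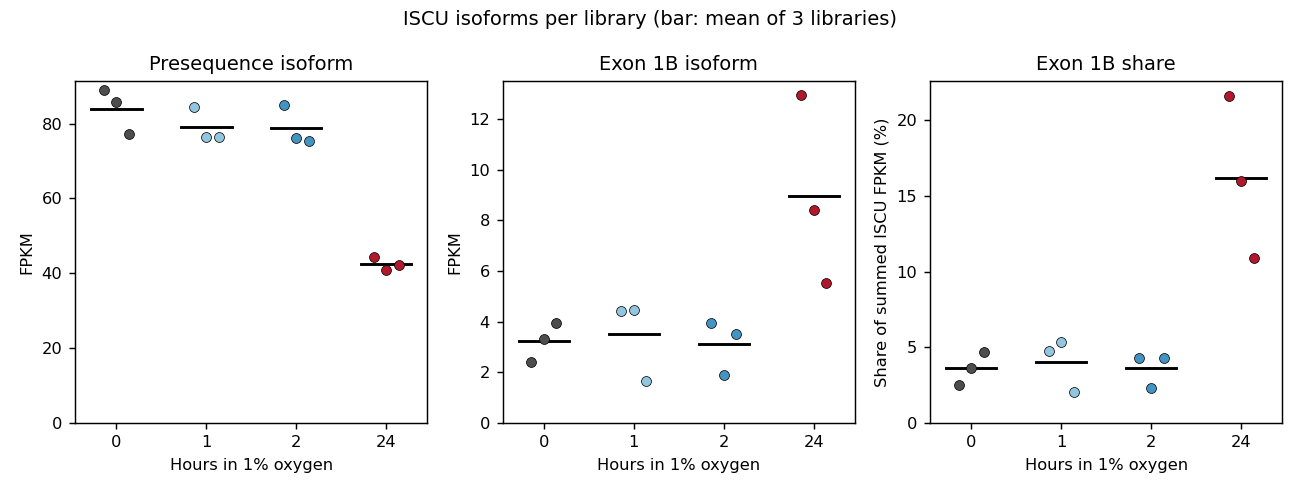
FPKM of the ISCU presequence and exon 1B isoforms and the exon 1B share in percent of summed ISCU (y axes, each from 0) by hours in 1% oxygen (x axis). Points are libraries and bars the means of 3 libraries, and at 24 h the presequence isoform is at 40.8 to 44.3 FPKM while the exon 1B share is at 10.9% to 21.6%.

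Among the 129 transcripts of the 8 genes, 36 passed the filter for transcripts and 9 changed at 24 h (7 higher and 2 lower, limma adjusted p under 0.05), next to 27.1% of all 64395 transcripts tested (11.9% higher and 15.2% lower). The 2 that fell were the full-length TFRC isoform and the ISCU presequence isoform. Of the 7 that rose, 4 belonged to FTH1 and 1 each to FTL, ACO1 and ISCU. IREB2 had none among 3 tested, and its largest isoform, ENST00000258886, held 78.5% ± 9.30 and 76.0% ± 9.88 of the gene at 0 h and 24 h (p = 0.7, exact).

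The other genes of iron handling were taken from role lists of 77 genes, of which 69 were tested. At 24 h, 7 of these rose and 31 fell at the adjusted p, where 18.3% of all gene names rose and 23.2% fell. With the fold limit 3 were higher and 9 lower, next to 8.76% and 9.51% of all gene names, and their median log2 fold change was -0.43 against -0.05 over all gene names. None passed at 1 h or 2 h.

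Mitochondrial iron-sulfur assembly, the pathway of ISCU, had 20 other genes tested, of which 1 rose and 11 fell at the adjusted p, next to 18.3% and 23.2% of all gene names, with a median log2 fold change of -0.55 against -0.05 over all gene names. FDX1L, the ferredoxin that supplies electrons, fell from 15.9 ± 1.40 to 4.22 ± 0.721 FPKM (log2 fold change -1.81, limma adjusted p = 1.8e-06).

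In cytosolic iron-sulfur assembly 9 of 11 genes fell and none rose, next to 23.2% lower and 18.3% higher of all gene names, and the median log2 fold change was -0.60. The electron donors of this machinery, CIAPIN1 and the reductase NDOR1, had log2 fold changes of -1.13 and -1.08. With only transcripts of class code =, the value of NDOR1 was -1.95. The glutaredoxin GLRX3 (-1.05) and the targeting factor FAM96A (-1.04) were also past both thresholds, with limma adjusted p of 1.9e-05 and 7.1e-05. CIAPIN1 stood at 45.3 ± 1.79 FPKM at 0 h and 20.5 ± 1.05 at 24 h (SD, n = 3).

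Uptake and mitochondrial import held changes in both directions. MCOLN1, a channel that lets iron out of late endosomes and lysosomes, fell from 5.78 ± 0.345 to 1.26 ± 0.262 FPKM (log2 fold change -1.84, limma adjusted p = 1.1e-06). STEAP1, of the metalloreductase family, fell from 16.6 ± 0.906 to 5.22 ± 1.08 FPKM (log2 fold change -1.60). Of the 8 other uptake genes tested, 1 rose and 3 fell, next to 18.3% higher and 23.2% lower of all gene names. Beside MCOLN1 and STEAP1, these were the endosomal ferrireductase STEAP3 (log2 fold change 0.83) and the metal transporter SLC39A14 (-0.49), both named after their values were seen. For mitochondrial import, SLC25A37 (mitoferrin-1) rose from 26.3 ± 3.38 to 54.1 ± 2.19 FPKM (log2 fold change 1.03, limma adjusted p = 3.2e-05), and ABCB10, which stabilises it, fell (log2 fold change -1.06). SLC25A28 (mitoferrin-2) had 23.9 FPKM at 0 h and 12.9 at 24 h on average and also fell (log2 fold change -0.87), named after its value was seen.

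None of 3 other storage genes passed, and the iron chaperone PCBP2 stood at 381 ± 8.95 and 419 ± 11.2 FPKM (log2 fold change 0.14, limma adjusted p = 0.15). Of the 3 genes of the ligase that degrades IRP2, 1 fell, CUL1 (log2 fold change -0.59, named after its value was seen), while SKP1 had a log2 fold change of -0.18 (limma adjusted p = 0.083). Over the 17 alternatives SKP1 lay between -0.27 and -0.12, and in 1 of them it passed (limma adjusted p = 0.0087). The third gene, FBXL5, had a log2 fold change of 0.15 (limma adjusted p = 0.26) and was also named after its value was seen. Among other RNAs with an iron-responsive element, 1 of 4 tested rose. Of all gene names, 18.3% rose and 23.2% fell. The gene that rose was EPAS1 (HIF-2α), from 4.91 ± 0.526 to 22.6 ± 6.46 FPKM (log2 fold change 2.06, limma adjusted p = 6.4e-06). In the export list FURIN, the protease that matures hepcidin among many other proteins, rose from 10.6 ± 0.241 to 27.3 ± 5.50 FPKM (log2 fold change 1.30, or 2.28 with class code = only), and the other gene of that list that was tested, the hepcidin inducer BMP6, did not pass.

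Heme synthesis had 1 gene higher and 3 lower of 8, and heme breakdown and transport 1 higher and 2 lower of 7, next to 18.3% higher and 23.2% lower of all gene names. CPOX, an enzyme of late heme synthesis, rose from 141 ± 25.3 to 254 ± 17.0 FPKM (log2 fold change 0.87, limma adjusted p = 9.5e-04). BLVRB, a biliverdin reductase, rose from 40.3 ± 4.12 to 76.2 ± 11.2 FPKM (log2 fold change 0.91, limma adjusted p = 6.2e-05). Among those that fell, named after their values were seen, were the synthesis enzymes UROS (-0.82) and UROD (-0.61), the heme oxygenase HMOX2 (-0.60) and the heme exporter FLVCR1 (-0.99), each as a log2 fold change.

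**Figure D4:**
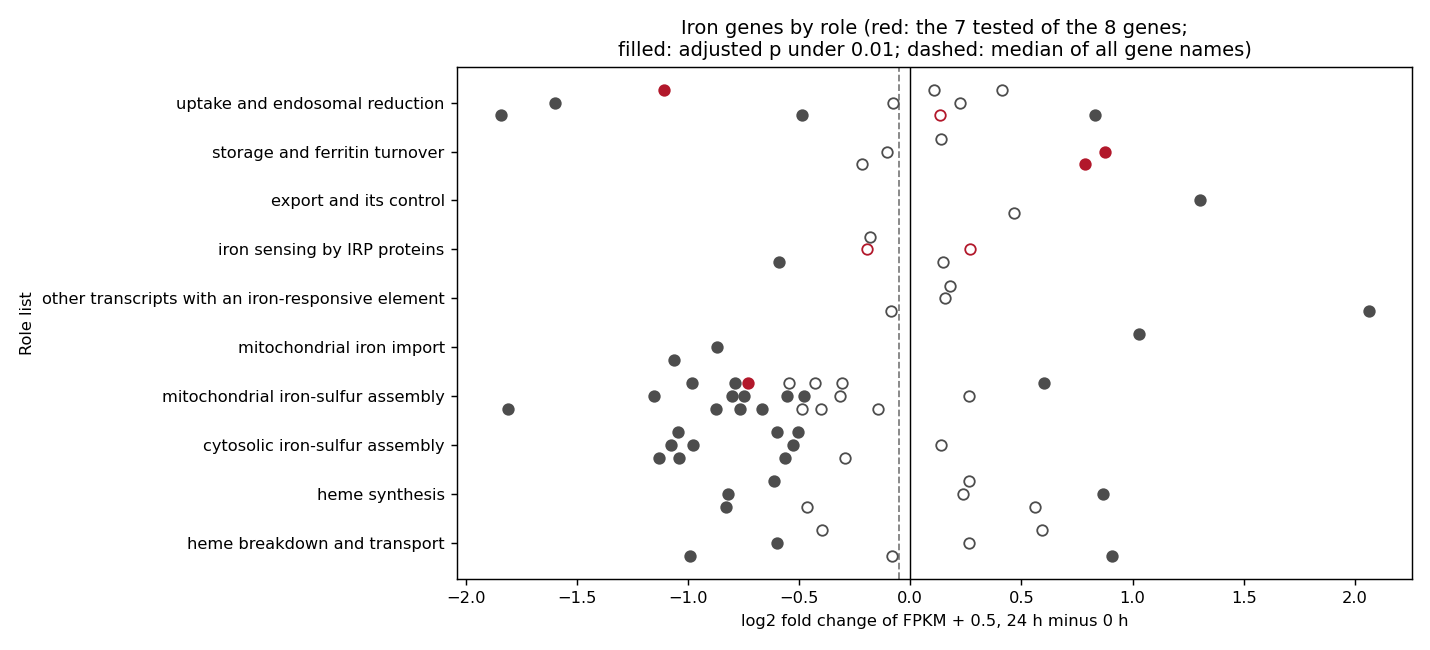
Log2 fold change of FPKM + 0.5 at 24 h against 0 h (x axis) for every tested gene of the 10 role lists (y axis), with the 7 tested genes of the main set in red and the others in grey. Filled points passed an adjusted p of 0.01, the dashed line is the median of all gene names (-0.05), and 9 of the 11 cytosolic iron-sulfur genes are filled and below 0.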

How the data were processed

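The authors aligned strand-specific reads to hg19 with MapSplice, assembled transcripts per sample with Cufflinks, merged them with Ensembl and deposited FPKM per transcript and library; base calling used CASAVA 1.8.2 per the labels. No scaling between libraries is stated in the sources used here, and the values were taken as deposited. Transcript annotation columns (class code, gene name, start-site group, length) came from the companion table. Gene sums were tested with limma 3.58.1 (lmFit, eBayes with trend; R 4.3.3) on log2(FPKM + 0.5), which understates the change of low genes, over 16680 gene names and 12 libraries with 8 residual degrees of freedom. This replaces the count test of the study, as FPKM are not counts. Genes were called at the study's thresholds (adjusted p under 0.01, log2 fold change beyond 1 in either direction) or at that p alone; "rose" and "fell" refer to the latter, and for transcripts to an adjusted p under 0.05. For shares, sums and ratios, exact permutation tests (two-sided) were used.

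The genes, role lists and markers were chosen with earlier results of these data known. Named beyond the 8 genes were other role-list genes past both thresholds at 24 h or, in a list with none, its gene of highest mean FPKM, member isoforms of at least 10% of a gene at any time point, and the 3 gene names most like a called gene; exceptions are stated, and some single-gene results are not reported here. Hairpins and UTRs came from GENCODE release 44 on GRCh37, whose coordinates are those of hg19. Deviations of same-numbered libraries from the means of their time points were correlated. All 3 pairs between 0 h and 2 h were above 0.1 (0.13 to 0.36), and there the numbers were taken to pair the libraries. This did not hold for all pairs between 0 h and 1 h (0.095 to 0.34) or 0 h and 24 h (-0.00078 to 0.24). The labels do not say what a number shares. The fold changes and p given above come from the fit without a replicate block, also at 2 h. The fit was run on simulated data with changes larger than those of the 8 genes and the same spread at every time point. It therefore does not test results such as that of TFRC, whose libraries spread more widely at 24 h. Tables and figures used Python 3.11.15, pandas 2.3.3, numpy 2.4.6, scipy 1.17.1 and matplotlib 3.10.9. Alternatives were the pseudocount, filters, class codes, scaling, a replicate block, the 6 libraries of a contrast alone, and leaving out each replicate.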

Additional observations from a re-analysis of the deposited data

Results flagged for a closer look

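The values here are log2 fold changes of the 24 h libraries against the 2 h libraries, that is, the difference between the changes at 24 h and 2 h from the same 0 h libraries, and each passed an adjusted p of 0.01 in the limma fit. Of the 8 genes, TFRC (-1.05), FTH1 (0.87) and ISCU (-0.64) differed in this way, and the libraries at 2 h and 24 h did not overlap for any of the 3. Of all gene names, 36.6% passed the same contrast.

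Of the other iron genes described above by name, lower values at 24 h than at 2 h were found for FDX1L (-1.82), STEAP1 (-1.62), MCOLN1 (-1.58), ABCB10 (-1.31), FAM96A (-1.30), GLRX3 (-1.11), CIAPIN1 (-0.96), FLVCR1 (-0.95), UROS (-0.81), CUL1 (-0.54), UROD (-0.52), HMOX2 (-0.42), SLC39A14 (-0.42) and SKP1 (-0.37). Higher values were found for EPAS1 (1.95), FURIN (1.14), SLC25A37 (1.10), STEAP3 (0.85) and BLVRB (0.81). SKP1 passed against 2 h and did not pass against 0 h.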

How the results depend on the processing

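In all 17 alternatives FTH1, FTL, TFRC and ISCU kept the direction of their change at 24 h, and FTH1 and ISCU stayed past the adjusted p, with log2 fold changes of 0.78 to 0.94 and -0.82 to -0.67. TFRC (-1.52 to -0.73) lost the call in 7 of them and FTL (0.69 to 0.86) in 3. With no filter on low values the limma fit called 0 of the 8 genes past both thresholds and 2 at the adjusted p alone, next to 9.67% and 21.5% of all gene names in that fit. With only the 6 libraries of the contrast it called 0 past both (17.8% of all gene names), and without a replicate in turn 0 to 1 and 2 to 4 (16.1% to 19.4% and 32.6% to 39.1%). At 1 h and 2 h none of the 8 genes was called in any alternative run. For the whole table at 1 h the count was 0 with no filter, with 6 libraries or with the replicate block, and 0 to 1 without a replicate. At 2 h it was 0 with no filter or 6 libraries, 5 with only transcripts above 0.5 FPKM in 3 libraries, 6 with a pseudocount of 0.1, and 0 to 6 without a replicate.

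Signs turned only among changes that were not called. With TPM over transcripts of 300 bases or more, FTH1 at 2 h was -0.0041 and ACO1 at 2 h -0.0016. With only transcripts above 0.5 FPKM, SLC11A2 at 24 h was -0.029, and with class code = only it was 0.36. Without a replicate, ranges at 1 h were -0.013 to 0.15 (TFRC), -0.091 to 0.023 (FTH1), -0.062 to 0.28 (FTL) and -0.090 to 0.13 (ACO1), and at 2 h -0.10 to 0.029 (TFRC), -0.060 to 0.057 (FTH1) and -0.17 to 0.14 (ACO1). The share of the largest ACO1 isoform moved to -3.33 points with class code = only. The cause of these shifts was not tested.

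At 2 h, where same-numbered libraries deviated together, the replicate block called 4 gene names past both thresholds against 3 without it and 0 of the 8 genes either way. At 24 h, where only the libraries numbered 3 did (0.24), the block called 3106 gene names past both thresholds against 3048 without it. At the adjusted p alone it called 7648 (45.9%) against 6927 (41.5%). The same number of the 8 genes was called either way, 4 at the adjusted p and 1 past both. The median log2 fold change of all gene names at 24 h was -0.05 as deposited, 0.00 with median-of-ratios scaling and -0.14 with TPM. With 3 libraries a group and no read counts, changes smaller than the spread between libraries were not detectable.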
